A study of Arabidopsis thaliana with 12 samples.

Results

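Loss of LHP1 did not act alike in the seed and in the fruit around it, and the comparison described here measures that unlikeness gene by gene. It uses all 12 libraries of the series, 3 each of Col-0 fruit, lhp1-6 fruit, Col-0 seed and lhp1-6 seed, from Arabidopsis thaliana. For each gene the lhp1-6 effect (lhp1-6 minus Col-0, in log2(TPM + 1) units) was taken in seed and in fruit, and the fruit effect was subtracted from the seed effect. A difference is called positive or "above" when the seed effect was the higher of the pair, and "below" when it was the lower. Of 26925 genes listed, 19946 had at least 1 TPM in at least 3 libraries and were tested.

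Col-0 is the wild-type accession and lhp1-6 a mutant allele of LIKE HETEROCHROMATIN PROTEIN 1 in the same species, with no other allele, transgene or hormone treatment named for either genotype. All plants of these 4 groups were kept at 22 °C until they bolted, after which days were at 16 °C and nights at 14 °C. Siliques were taken 14 to 15 days after pollination, when embryos had bent cotyledons, and dissected by hand. Each replicate pooled the fruits or the seeds of 3 to 5 siliques, and whether the pools came from separate plants is not stated, so the p-values here cover only the spread from pool to pool.

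LHP1 is a chromodomain protein that binds trimethylated lysine of histone H3 at genes silenced by the Polycomb system. Polycomb silencing differs between organs, since each organ keeps a different set of developmental regulators repressed. The seed holds the embryo and the endosperm inside a maternal coat, and the fruit is maternal tissue that protects and feeds it, so an lhp1 mutation can reach the same gene in settings where it is silent, active or absent.

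The targeted gene checked the labels. LHP1 (AT5G17690) lay between 15.3 and 23.7 TPM in the 6 Col-0 libraries and between 0.310 and 0.858 TPM in the 6 lhp1-6 libraries, with no overlap. Of 9 seed markers, 8 were higher in every Col-0 seed library than in any Col-0 fruit library, the exception being the storage globulin gene CRU3. Of 7 fruit markers, FUL, IND and ADPG1 were higher in every Col-0 fruit library than in any Col-0 seed library. SHP2, YAB1 and YAB3 were higher in every Col-0 seed library, and SHP1 overlapped, so these 4 genes did not mark the fruit here.

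Seed RNA was measurable in the fruit libraries and unevenly so. LEC1, a regulator of embryo identity, stood at 40.5, 9.98 and 15.6 TPM across the Col-0 fruit replicates, against a mean of 148 TPM across Col-0 seed. The share of seed RNA estimated from genes abundant in seed was 23.3%, 3.69% and 5.65% in Col-0 fruit and 8.31%, 11.2% and 9.13% in lhp1-6 fruit. Col-0 fruit replicate 1 also lay nearest to the seed libraries on the first principal component, and lhp1-6 seed replicate 2 stood apart from its group on the second. Storage protein and oleosin genes held 1.36% to 2.14% of the TPM across Col-0 seed, but 10.8%, 4.91% and 12.4% in lhp1-6 seed. TPM is a share of a total, and the median effect over all genes was -0.15 in seed and -0.03 in fruit, and the median difference was -0.14. After median-of-ratios rescaling the median effect was 0.00 in seed and -0.01 in fruit, and the median difference was 0.00.

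The difference was called for 1100 genes, which is 5.51% of those tested (limma on all 12 libraries, Benjamini-Hochberg adjusted p under 0.05). The seed effect was above the fruit effect for 343 genes (1.72%) and below it for 757 (3.8%). After median-of-ratios rescaling the split was 373 above and 372 below, and after quantile normalisation it was 351 and 430, so the excess of lower calls depended on the scaling. Called under the deposited values and both rescalings were 274 genes above and 338 below. By comparison the lhp1-6 effect itself was called for 2980 genes in fruit (14.9%) and 2410 in seed (12.1%).

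Among the runs with 1 library left out, the number of calls moved furthest for Col-0 fruit replicate 1. That library had the highest estimated share of seed RNA, and whether the share was the cause was not tested. Without Col-0 fruit replicate 1, 1123 genes were called above and 2962 below, and these held all 343 and all 757 of the genes called with it. With fruit and seed of the same replicate number kept as pairs (the replicate block), 169 were called above and 328 below, of which 150 and 302 were among the first set. Called differences had a median size of 0.94 log2 units, and 223 above and 269 below reached 1 unit. The median standard error of a difference was 0.19 over all genes.

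**Figure D1:**
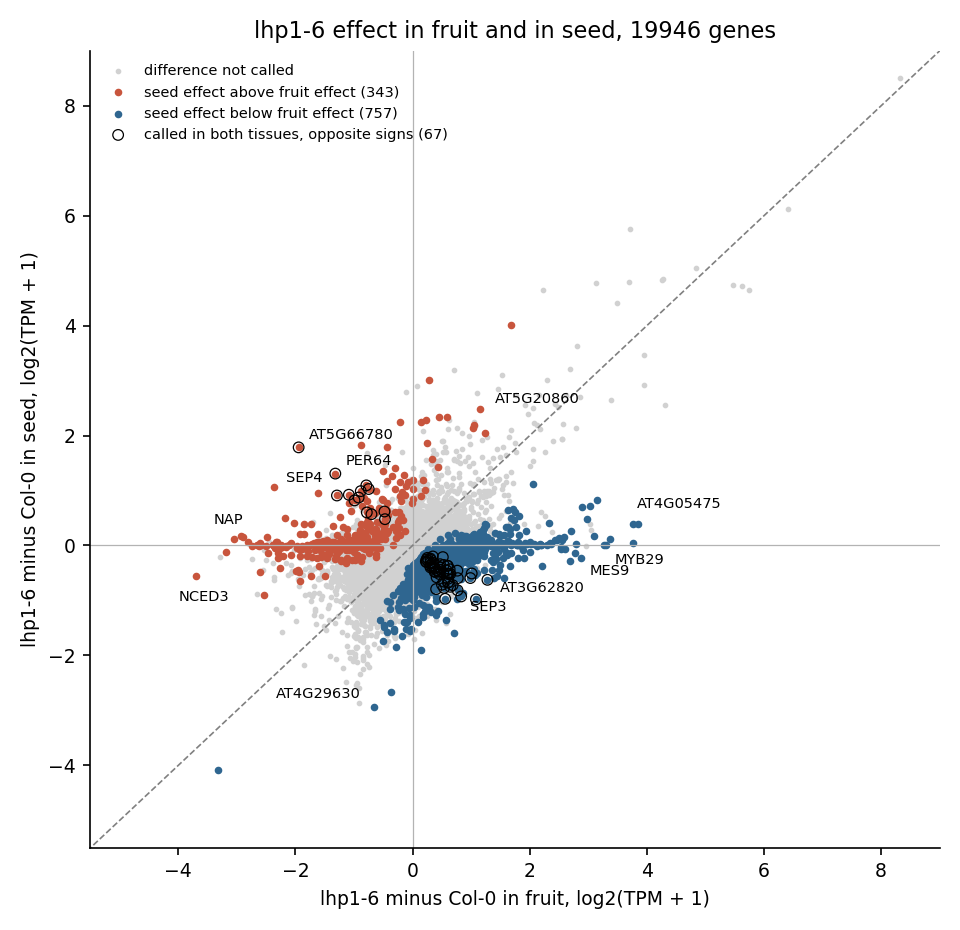
Each point is a gene, placed by its lhp1-6 effect in fruit (horizontal axis) and in seed (vertical axis), both in log2(TPM + 1) units. The dashed line marks equal effects. Red points are the 343 genes with a called difference above 0 and blue points the 757 below 0, and black rings mark the 67 genes called in opposite directions in the tissues. Of the 1100 coloured points, 663 had an effect called in fruit only.

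Where both tissues were called, most genes moved the same way. An lhp1-6 effect was called in both tissues for 612 genes, with the same sign for 545 and opposite signs for 67. Across the 19946 genes the fruit and seed effects had a Pearson correlation of 0.43, a description only, since the fruit libraries also held seed RNA. Passing the threshold in 1 tissue did not by itself show a difference: of 4166 genes called in 1 tissue only, the difference was not called for 3214. Of the 1100 called differences, 663 came with an effect called in fruit only, 289 in seed only, 88 in both and 60 in neither.

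By sign, 750 of the 1100 genes had effects of opposite sign, 236 moved the same way with the larger change in fruit, and 84 moved the same way with the larger change in seed. The remaining 30 had a called effect in fruit and an effect of exactly 0 in seed, being listed at 0 TPM in all 6 seed libraries. Opposite signs were often a change in 1 tissue beside a small, uncalled value in the other: only 67 of the 750 passed the threshold in each tissue. After median-of-ratios rescaling 467 of 745 called genes had opposite signs.

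The genes were then sorted by whether their mean reached 1 TPM in each tissue of Col-0. Of 17010 genes expressed in both tissues the difference was called for 770 (4.53%), of 1711 expressed in fruit only for 248 (14.5%), of 1015 in seed only for 30 (2.96%) and of 210 in neither for 52 (24.8%). The direction differed between the classes, which is a description only. The Col-0 means that set the classes are also terms of the difference. A gene under 1 TPM in Col-0 also has little room to fall in that tissue. Among genes expressed in both tissues 157 were above and 613 below, whereas among genes expressed in fruit only 175 were above and 73 below. The first of these splits became 206 and 256 after median-of-ratios rescaling, and the second 158 and 59. Without Col-0 fruit replicate 1 the seed-only class held 1357 genes, of which 2 were above and 216 below.

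**Figure D2:**
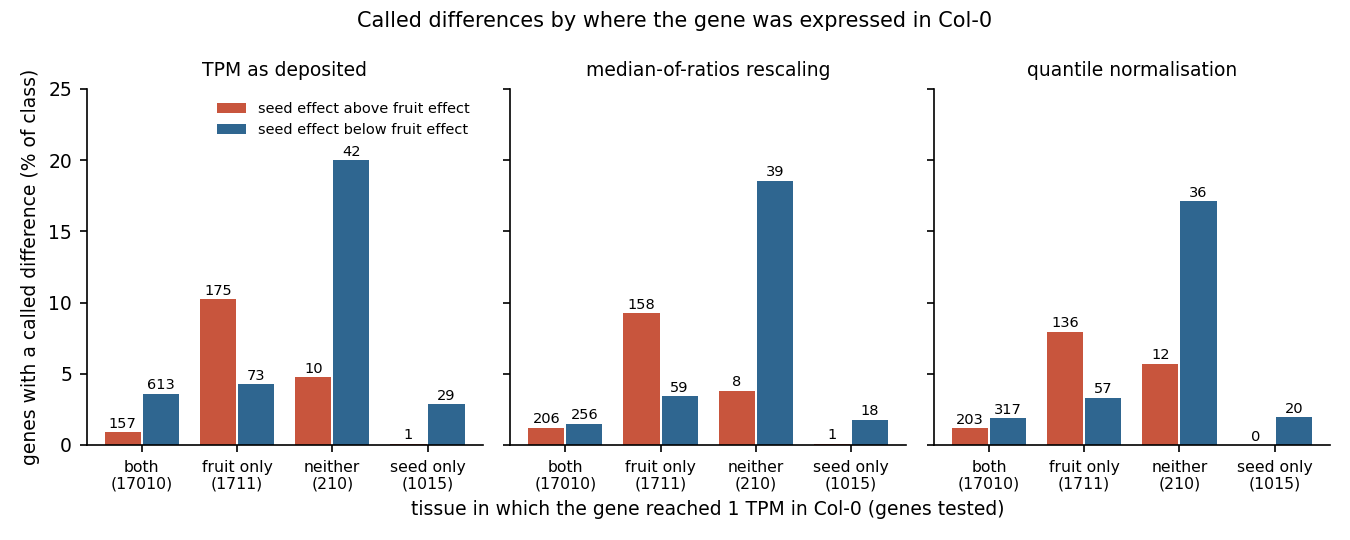
Bars give the percentage of each class of genes with a called difference, red where the seed effect was above the fruit effect and blue where it was below, with the number of genes over each bar. Classes are set by the tissue in which a gene reached 1 TPM in Col-0, and the panels show the deposited TPM and 2 rescalings. The blue bar of the genes expressed in both tissues shrinks from 613 to 256 and 317 genes, while the fruit-only class keeps more red than blue in each panel.

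Among genes expressed in both tissues, calls above 0 were mostly losses in the fruit. Of the 157 genes, the fruit effect was a called fall in 119 and the seed effect a called rise in 35. The largest under the naming rule include AT5G66780, ELP, NCED3 and the germin-like genes AT5G39150 and AT5G39180.

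ELP encodes an extensin-like protein, a class of proteins linked to the cell wall. It stood at 346, 183 and 355 TPM across Col-0 fruit, 37.9, 73.7 and 56.1 TPM across lhp1-6 fruit, 2.91, 2.65 and 1.84 TPM across Col-0 seed and 7.18, 3.88 and 8.25 TPM across lhp1-6 seed. The genotypes did not overlap in either tissue, lhp1-6 being the lower in fruit and the higher in seed. Its effect was -2.37 in fruit (adjusted p = 0.00108) and 1.06 in seed (adjusted p = 0.0558), a difference of 3.43 (SE 0.46, adjusted p = 0.00266).

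NCED3 encodes the dioxygenase at the committed step of abscisic acid synthesis, the hormone that imposes seed dormancy. Its seed values were low in both genotypes, at 1.78, 1.26 and 1.25 TPM in Col-0 and 0.520, 1.08 and 0.380 TPM in lhp1-6, beside 22.1, 119 and 84.9 TPM across Col-0 fruit and 3.14, 4.45 and 3.78 TPM across lhp1-6 fruit. The fall was thus in the fruit, where Col-0 replicates differed widely among themselves. The difference was 3.14 (SE 0.67, adjusted p = 0.0248), with an effect of -0.56 in seed that did not pass (adjusted p = 0.455). The call ended with the replicate block (adjusted p = 0.0591). It also ended without Col-0 fruit replicate 3, lhp1-6 fruit replicate 1, Col-0 seed replicate 2 or 3, or lhp1-6 seed replicate 1 or 3 (adjusted p from 0.0519 to 0.0681).

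AT5G39150 and AT5G39180 encode germin-like proteins of the cupin superfamily, and as near-identical copies whose reads may be split between them they count as 1 observation. AT5G39150 stood at 74.8, 75.5 and 110 TPM across Col-0 fruit and 11.6, 6.79 and 13.7 TPM across lhp1-6 fruit. In seed all 6 libraries lay between 0.918 and 1.55 TPM. The difference was 3.10 (SE 0.32, adjusted p = 0.000711).

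Calls below 0 in the same class came from both sides. Of the 613 genes, the fruit effect was a called rise in 332 and the seed effect a called fall in 287. MES9, NIR1 and TCP17 represent the first kind, and the neighbouring genes AT4G29620 and AT4G29630 the second. These counts depend on the scaling. After median-of-ratios rescaling the 613 became 256, and over all genes the effects called in seed went from 2410 to 997.

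MES9 encodes a methyl esterase that in vitro acts on methylated plant hormones. It stood at 6.91, 8.02 and 8.02 TPM across Col-0 fruit and 46.1, 69.3 and 76.7 TPM across lhp1-6 fruit, while the seed values were 1.64, 2.02 and 3.33 TPM in Col-0 and 1.33, 1.80 and 2.3 TPM in lhp1-6. The genotypes were far apart in fruit and overlapped in seed. The difference was -3.11 (SE 0.31, adjusted p = 0.000654).

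NIR1, the nitrite reductase of nitrate assimilation, stood at 27.6, 15.4 and 13.6 TPM across Col-0 fruit and 92.3, 150 and 128 TPM across lhp1-6 fruit. Its seed values lay between 4.63 and 6.79 TPM in the 6 libraries, with lhp1-6 below Col-0. The difference was -2.98 (SE 0.33, adjusted p = 0.000949). TCP17, a transcription factor of the TCP family that restrains or promotes growth of lateral organs, showed the same pattern at lower levels. It rose from 3.08 ± 0.41 to 22.6 ± 2.14 TPM in fruit (SD, n = 3) and stood at 3.57 ± 0.94 and 3.32 ± 0.47 TPM in seed, a difference of -2.6 (SE 0.22, adjusted p = 0.000319).

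AT4G29620 and AT4G29630 encode cytidine deaminase family proteins, enzymes of pyrimidine salvage, and carry consecutive identifiers. In seed AT4G29630 stood at 12.3, 17.3 and 16.9 TPM in Col-0 and 1.41, 1.12 and 2.32 TPM in lhp1-6. In fruit it stood at 3.33, 0.360 and 1.55 TPM and 0.951, 1.21 and 0.617 TPM, where the genotypes overlapped. The highest Col-0 fruit value was that of replicate 1, the library with the highest estimated share of seed RNA. AT4G29620 moved likewise in seed, from 6.37 ± 0.95 to 1.43 ± 0.27 TPM. The differences were -2.3 for each (SE 0.34 for AT4G29620, adjusted p = 0.00483; SE 0.49 for AT4G29630, adjusted p = 0.0257). The AT4G29630 call ended with the replicate block (adjusted p = 0.0786), and without lhp1-6 fruit replicate 1 or 2, Col-0 seed replicate 2 or 3, or lhp1-6 seed replicate 1 (adjusted p from 0.0544 to 0.0715).

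**Figure D3:**
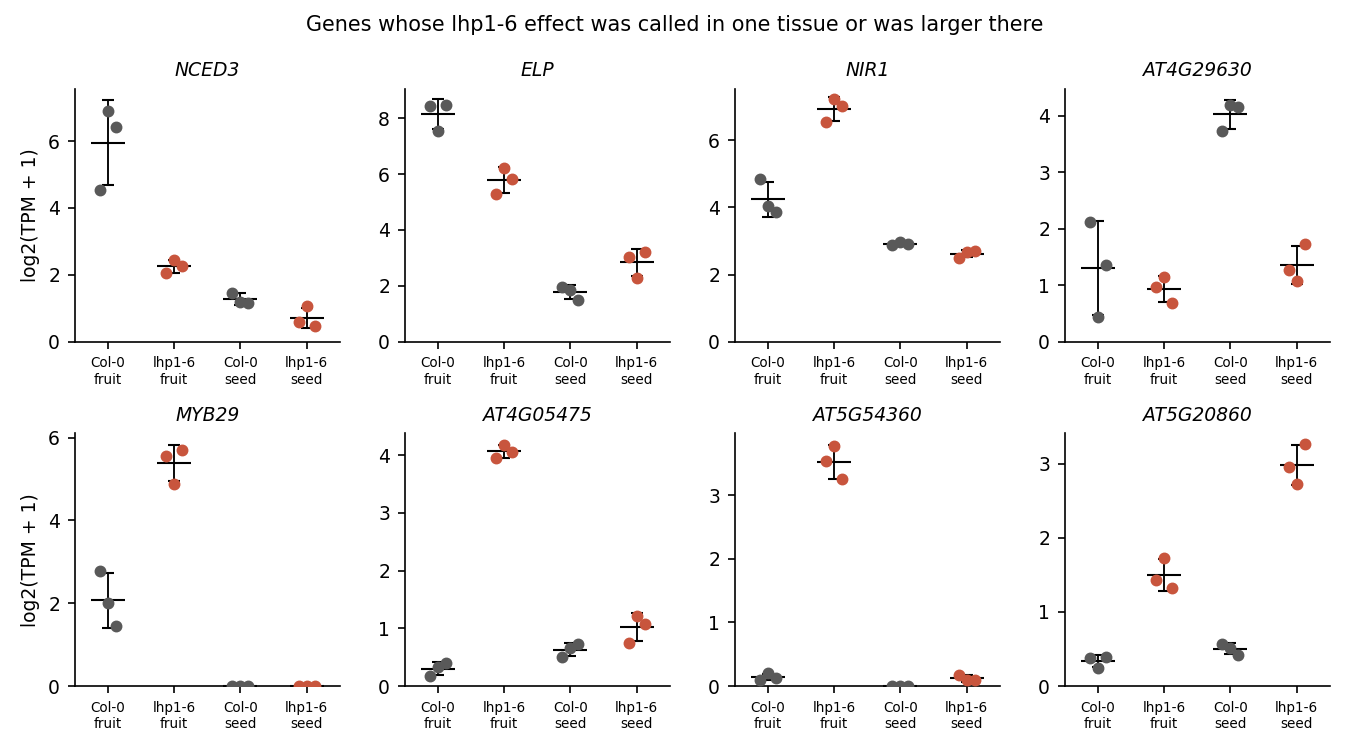
Points are single libraries, grey for Col-0 and red for lhp1-6, on a log2(TPM + 1) axis, with the mean and SD of the 3 replicates in black. NCED3 and ELP fell in the fruit, NIR1, MYB29, AT4G05475 and AT5G54360 rose there, AT4G29630 fell in the seed, and AT5G20860 rose in both tissues and more in the seed.

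Genes expressed in the fruit only mostly changed there. Of the 175 such genes above 0, the fruit effect was a called fall in 163, and 149 stayed under 1 TPM across lhp1-6 seed. Of the 73 below 0, it was a called rise in 72, and 69 stayed under 1 TPM across lhp1-6 seed. For most of these genes the difference is therefore the fruit effect itself, beside a seed level near the floor of the log2(TPM + 1) scale. Fewer cells of a type and less RNA per cell cannot be told apart in these bulk samples.

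Falls in this class were led by NAP, AT3G59845 and AT5G59330. NAP, a NAC transcription factor that promotes leaf senescence, stood at 12.9, 35.3 and 54.7 TPM across Col-0 fruit and 2.35, 2.42 and 3.41 TPM across lhp1-6 fruit, and at most 1.62 TPM in any seed library. Its difference was 3.16 (SE 0.59, adjusted p = 0.0142). AT3G59845, which encodes a zinc-binding dehydrogenase family protein, fell in fruit from 179, 237 and 192 TPM to 33.8, 14.8 and 18.9 TPM and was listed at 0 in all 3 lhp1-6 seed libraries (difference 3.08, SE 0.33, adjusted p = 0.000763). AT5G59330, of the lipid transfer protein superfamily, fell from 7.71 ± 2.67 to 0.198 ± 0.095 TPM in fruit (difference 2.88, SE 0.29, adjusted p = 0.000634).

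Rises in this class were led by TGG2, AT2G05540 and MYB29. MYB29 encodes a regulator of aliphatic glucosinolate synthesis, a defence pathway of the cabbage family. It stood at 5.81, 3.04 and 1.72 TPM across Col-0 fruit and 46.0, 28.6 and 51.0 TPM across lhp1-6 fruit, and was listed at 0 in all 6 seed libraries. Its difference of -3.30 (SE 0.41, adjusted p = 0.00206) is therefore its fruit effect with the sign turned. AT2G05540, a glycine-rich protein gene, rose from 22.9 ± 9.95 to 324 ± 59.2 TPM in fruit (difference -3.46, SE 0.41, adjusted p = 0.00155).

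TGG2, a myrosinase that cleaves glucosinolates, stood at 116, 24.9 and 12.6 TPM across Col-0 fruit and 349, 493 and 594 TPM across lhp1-6 fruit, and at most 0.107 TPM in any seed library. The difference was -3.72 (SE 0.83, adjusted p = 0.0288). This call ended with the replicate block (adjusted p = 0.0537), and without Col-0 fruit replicate 2, lhp1-6 fruit replicate 2 or 3, any Col-0 seed replicate, or lhp1-6 seed replicate 1 or 3 (adjusted p from 0.0572 to 0.0743).

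Genes with a mean under 1 TPM in both tissues of Col-0 mostly reached that level in only 1 tissue of lhp1-6. These 210 genes entered the test largely through lhp1-6 libraries, so their counts are a description. In lhp1-6, 102 of them reached a mean of 1 TPM in fruit only, 67 in seed only, 18 in both and 23 in neither. A rise in fruit was called for 55 of the 102, and a rise in seed for 35 of the 67. The difference was called for 40 and 8 of them, so reaching the level in 1 tissue does not show a difference. Of the 42 with a called difference below 0, 40 were a called rise in fruit, and of the 10 above 0, all were a called rise in seed. With the replicate block 28 of the 210 genes were called below 0 and 0 above.

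AT4G05475, a gene of the RNI-like superfamily, stood at 0.127, 0.260 and 0.321 TPM across Col-0 fruit and 14.4, 17.1 and 15.7 TPM across lhp1-6 fruit. Its seed values were 0.415, 0.586 and 0.650 TPM in Col-0 and 0.679, 1.33 and 1.12 TPM in lhp1-6. The genotypes did not overlap in either tissue, but the seed rise of 0.39 did not pass (adjusted p = 0.0915). The difference was -3.37 (SE 0.19, adjusted p = 3.56e-05).

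AT5G54360, which encodes a C2H2-like zinc finger protein, rose in fruit to 10.6, 12.7 and 8.53 TPM from at most 0.149 TPM in Col-0. It was listed at 0 in the 3 Col-0 seed libraries and at 0.129 TPM or less in lhp1-6 seed. Its difference was -3.26 (SE 0.18, adjusted p = 3.56e-05). VSP1, a vegetative storage protein and a classical jasmonate-responsive gene, rose in fruit from 0.358 ± 0.158 to 8.75 ± 3.45 TPM, with at most 0.0388 TPM in any seed library (difference -2.77, SE 0.30, adjusted p = 0.000781).

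The gene AT5G20860, of the invertase and pectin methylesterase inhibitor superfamily, went the other way. It stood at 0.306, 0.188 and 0.310 TPM across Col-0 fruit, 1.69, 2.33 and 1.51 TPM across lhp1-6 fruit, 0.486, 0.425 and 0.343 TPM across Col-0 seed and 6.78, 5.65 and 8.60 TPM across lhp1-6 seed. It rose in both tissues, by 1.16 in fruit and 2.48 in seed, and the difference of 1.33 (SE 0.21, adjusted p = 0.00735) lost its call with the replicate block (adjusted p = 0.0536). AT5G05965 and AT1G27990 rose in seed to means of 6.51 and 6.42 TPM, with at most 0.722 and 0.642 TPM in any lhp1-6 fruit library. Their differences of 1.74 and 1.88 also ended under the block (adjusted p = 0.0687 and 0.0741). That of AT5G05965 also ended without any 1 of the Col-0 seed replicates (adjusted p from 0.0522 to 0.0635). That of AT1G27990 ended after median-of-ratios rescaling (adjusted p = 0.0543) and without any 1 library other than Col-0 fruit replicate 1 and lhp1-6 seed replicate 2 (adjusted p from 0.0550 to 0.0999).

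In the seed-only class, AT3G47030, an F-box associated domain gene, stood at 0.757, 0.532 and 0.506 TPM across Col-0 fruit and at 8.10, 9.03 and 8.63 TPM across lhp1-6 fruit. Its seed values overlapped, at 1.01, 0.887 and 1.19 TPM in Col-0 and 1.21, 1.79 and 0.879 TPM in lhp1-6. The class name describes Col-0: in lhp1-6 the gene was higher in fruit than in seed in every library. Its difference was -2.43 (SE 0.20, adjusted p = 0.000298).

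Opposite movement with each side called was seen for 67 genes, 0.336% of those tested. Of these, 54 rose in fruit and fell in seed, and 13 fell in fruit and rose in seed. The size of the effects ranged from 0.23 to 1.95 in fruit and from 0.20 to 1.78 in seed. The count moved to 24 after median-of-ratios rescaling and 23 after quantile normalisation. The genes called in all 3 scalings numbered 16, of which 8 rose and 8 fell in seed. Without Col-0 fruit replicate 1 the count was 261, and 60 of the 67 were among them.

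SEP3 and SEP4, both SEPALLATA MADS-box transcription factors that specify floral organs, reversed against each other. SEP3 (AT1G24260) stood at 194, 195 and 180 TPM across Col-0 fruit and 349, 309 and 315 TPM across lhp1-6 fruit. In seed it stood at 35.3, 41.1 and 42.3 TPM in Col-0 and 21.3, 26.2 and 19.1 TPM in lhp1-6. The genotypes did not overlap in either tissue. The effect was 0.77 in fruit (adjusted p = 0.00153) and -0.81 in seed (adjusted p = 0.00252), a difference of -1.58 (SE 0.16, adjusted p = 0.000634).

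SEP4 (AT2G03710) moved the opposite way, and its seed level was near the floor. It stood at 81.7, 108 and 131 TPM across Col-0 fruit, 44.3, 53.2 and 49.4 TPM across lhp1-6 fruit, 0.227, 0.225 and 0.227 TPM across Col-0 seed and 1.52, 1.26 and 1.21 TPM across lhp1-6 seed. Again no library crossed between the genotypes. The effect was -1.09 in fruit (adjusted p = 0.00108) and 0.92 in seed (adjusted p = 0.00547), a difference of 2.01 (SE 0.21, adjusted p = 0.000758). Fruit RNA in the seed libraries was not estimated. Between Col-0 and lhp1-6 seed the fruit marker IND went from 0.0598 to 0.709 TPM, FUL from 0.0564 to 0.420 TPM and ADPG1 from 0.651 to 0.694 TPM. Its part in the seed rise of SEP4 and of other genes far higher in fruit was not tested.

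The largest reversal upward in seed was that of AT5G66780, which encodes a late embryogenesis abundant protein, a family that protects drying tissue. It stood at 31.2, 26.5 and 60.2 TPM across Col-0 fruit, 7.30, 18.5 and 4.87 TPM across lhp1-6 fruit, 3.21, 1.49 and 1.96 TPM across Col-0 seed and 11.8, 6.54 and 12.2 TPM across lhp1-6 seed. The groups did not overlap within either tissue, and the difference was 3.73 (SE 0.62, adjusted p = 0.00917). PER64, a peroxidase needed for lignin of the root Casparian strip, fell from 132 ± 25.0 to 52.7 ± 10.7 TPM in fruit and rose from 0.907 ± 0.337 to 3.73 ± 0.88 TPM in seed (difference 2.63, SE 0.28, adjusted p = 0.000859).

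A pair of further genes reversed the same way as SEP4. AT3G12955, a SAUR-like gene of the auxin-responsive family, fell from 10.4 ± 2.49 to 3.58 ± 0.30 TPM in fruit and rose from 0.198 ± 0.042 to 1.26 ± 0.27 TPM in seed (difference 2.2, adjusted p = 0.000697). AT3G55710, of the UDP-glycosyltransferase superfamily, fell from 18.4 ± 2.02 to 9.28 ± 1.25 TPM in fruit and rose from 1.71 ± 0.09 to 4.05 ± 1.16 TPM in seed (difference 1.79, adjusted p = 0.00266).

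Genes that rose in fruit and fell in seed were often at like levels in both tissues. AT2G03980, a GDSL lipase family gene, stood at 16.9, 18.1 and 14.9 TPM across Col-0 fruit and 28.4, 28.3 and 34.2 TPM across lhp1-6 fruit. In seed it stood at 13.5, 12.1 and 13.4 TPM in Col-0 and 6.31, 7.5 and 5.38 TPM in lhp1-6. The levels of the genotypes parted upward in fruit and downward in seed with no overlap, and the difference was -1.76 (SE 0.17, adjusted p = 0.000634).

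AT5G43870, annotated as an auxin canalization protein, went from 4.95 ± 1.81 to 11.2 ± 0.77 TPM in fruit and from 7.35 ± 0.72 to 3.23 ± 0.34 TPM in seed (difference -2.06, adjusted p = 0.00266). AT3G62820, of the invertase and pectin methylesterase inhibitor superfamily, went from 71.5 ± 5.68 to 175 ± 20.7 TPM in fruit and from 19.9 ± 2.96 to 12.5 ± 1.47 TPM in seed (difference -1.90, adjusted p = 0.00049). AT5G10830, a methyltransferase family gene, had a difference of -1.28 (adjusted p = 0.0106). After median-of-ratios rescaling the difference held for both, but the fall in seed of AT3G62820 and of AT5G10830 no longer passed.

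**Figure D4:**
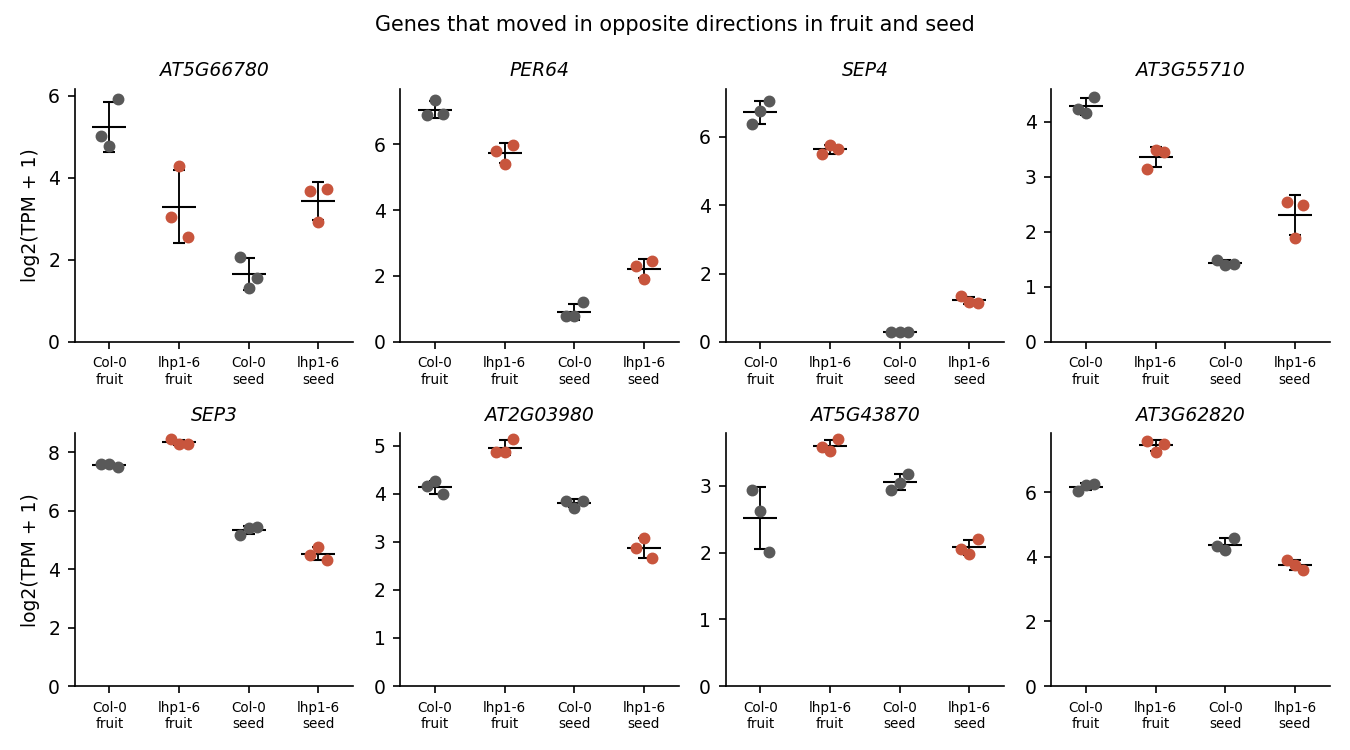
Points are single libraries, grey for Col-0 and red for lhp1-6, on a log2(TPM + 1) axis, with the mean and SD of the 3 replicates in black. The upper 4 genes fell in lhp1-6 fruit and rose in lhp1-6 seed, and the lower 4 rose in fruit and fell in seed. In none of the 8 genes did the genotypes overlap within a tissue. These genes were chosen as called in both tissues, so the lack of overlap adds no further support.

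Some effects were alike within a stated margin, a criterion unlike that of the reversals, so the 2 counts are not ranked. A gene was counted as changed alike when it was called in both tissues with the same sign and the 95% interval of the difference lay inside -1 to 1. That held for 422 genes (2.12%), 57 that rose and 365 that fell. The margin is wider than the median called difference of 0.94, and an interval inside -0.5 to 0.5 held for 211. After median-of-ratios rescaling the same margin held 205, and 120 genes were counted under the deposited values and both rescalings, of which 47 rose and 73 fell. Of the 545 genes with the same called sign, 21 had a called difference, and 105 had neither a called difference nor an interval inside the margin. The 21 and the 422 share some genes, because the margin did not exclude a called difference.

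LAC10, a laccase of the lignin-forming family, illustrates these genes. It stood at 7.82, 7.31 and 5.09 TPM across Col-0 fruit, 1.88, 2.05 and 1.65 TPM across lhp1-6 fruit, 9.54, 7.76 and 9.41 TPM across Col-0 seed and 2.37, 2.95 and 3.27 TPM across lhp1-6 seed. It fell by 1.42 in fruit and by 1.36 in seed, and the interval of the difference ran from -0.42 to 0.54. OPT1, an oligopeptide transporter, fell from 81.9 ± 11.2 to 38.7 ± 12.2 TPM in fruit and from 31.7 ± 1.87 to 12.2 ± 0.67 TPM in seed, with an interval from -0.80 to 0.39.

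Among the genes that rose alike, ASL1, a transcription factor of the LOB-domain family, stood at 2.98, 3.28 and 1.69 TPM across Col-0 fruit and 8.84, 7.13 and 6.29 TPM across lhp1-6 fruit. In seed it stood at 2.33, 2.62 and 2.24 TPM in Col-0 and 6.94, 6.48 and 6.16 TPM in lhp1-6. The 4 groups formed the same pair of levels in each tissue. The effects were 1.22 and 1.15, and the interval of the difference ran from -0.61 to 0.47.

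Lists of genes by role showed where the calls fell. In 31 lists 391 genes were tested, and the difference was called above 0 for 21 and below 0 for 27, which is 12.3% of them beside 5.51% of all genes tested. The lists were chosen with earlier results known, so nothing is read from that share. Of these 48 calls, 23 held without each library in turn, 28 with the replicate block and 38 after median-of-ratios rescaling. The 5.51% over all genes also stands beside each list count below, and those counts are a description of short lists.

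Floral MADS-box genes held calls in both directions, 3 above and 5 below among 14 tested. The list median difference was -0.33, beside -0.14 over all genes. SHP1, a gene of valve margin and ovule identity, rose from 36.3 to 55.6 TPM in fruit and fell from 32.5 to 24.9 TPM in seed (difference -0.97, adjusted p = 0.00443), but it was not among the 16 genes reversed in all 3 scalings. The other calls were AG, SEP1 (AT5G15800) and SHP2 below, at -0.79, -0.62 and -1.02, and FUL and AP1 above, at 1.03 and 1.15. Each of these 5 ended without Col-0 seed replicate 3, lhp1-6 seed replicate 1 or lhp1-6 seed replicate 3, and 4 of them, all but SHP2, also without some other library. Their highest adjusted p with 1 library left out was 0.0804, 0.114, 0.0523, 0.0650 and 0.0802 in that order. With the block the adjusted p was 0.0737 for AG, 0.0614 for SHP2, 0.0709 for FUL and 0.0602 for AP1. The calls of AG and SEP1 also ended after median-of-ratios rescaling (adjusted p = 0.0617 and 0.135).

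Of 12 flowering time genes, 2 were above and 1 below. AGL19, a MADS-box activator of flowering repressed by the Polycomb system, stood at 0.239, 0.147 and 0.0607 TPM across Col-0 fruit, 8.84, 7.81 and 6.03 TPM across lhp1-6 fruit, 0.0896, 0.0888 and 0.134 TPM across Col-0 seed and 0.899, 0.613 and 0.886 TPM across lhp1-6 seed. It rose in both tissues and by less in seed (2.89 and 0.70, difference -2.19, SE 0.19, adjusted p = 0.000324). SOC1, an integrator of flowering signals, stood at 3.55, 2.6 and 3.40 TPM across Col-0 seed and 6.30, 8.63 and 7.52 TPM across lhp1-6 seed. In fruit it stood at 53.6, 61.3 and 63.4 TPM and at 47.4, 54.4 and 42.3 TPM, where the genotypes overlapped. The SOC1 difference was 1.32 (SE 0.19, adjusted p = 0.00411), with an uncalled fruit effect of -0.30 (adjusted p = 0.16).

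TSF, a florigen gene related to FT, fell from 21.9 to 4.08 TPM in fruit and was near 0 in seed (difference 2.15, adjusted p = 0.0181). Without Col-0 seed replicate 3 or lhp1-6 seed replicate 3 the call ended, the adjusted p reaching 0.0548. STM, the KNOX gene that maintains the shoot meristem, fell from 40.5 ± 7.66 to 12.6 ± 3.44 TPM in fruit and stood at 3.94 ± 0.53 and 3.24 ± 0.42 TPM in seed (difference 1.41, adjusted p = 0.0145). With the block the STM call ended (adjusted p = 0.0602).

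Of 22 Polycomb and trithorax genes none was above and 2 below, beside 5.51% called of all genes tested. VIN3, a PHD finger protein that acts with PRC2 in vernalization, rose from 2.22 ± 0.66 to 4.43 ± 0.22 TPM in fruit and fell from 9.59 ± 0.51 to 6.06 ± 0.97 TPM in seed (difference -1.37, adjusted p = 0.00621). After median-of-ratios rescaling its fall in seed no longer passed (adjusted p = 0.0973). The other, the PRC2 methyltransferase gene SWN, had a difference of -0.57 that ended after median-of-ratios rescaling (adjusted p = 0.0611) and with the block (adjusted p = 0.0567). It also ended without Col-0 seed replicate 2 or 3 or lhp1-6 seed replicate 3 (adjusted p up to 0.0668).

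Abscisic acid genes were called in both directions. Above 0 were NCED3 and ABA1 of 8 synthesis genes and CYP707A2 of 8 catabolism genes. CYP707A2, a hydroxylase that breaks abscisic acid down, stood at 18.9, 20.6 and 18.0 TPM across Col-0 fruit and 6.97, 9.36 and 5.06 TPM across lhp1-6 fruit. All 6 seed libraries lay between 0.212 and 0.519 TPM, with the genotypes overlapping. Its difference was 1.34 (SE 0.25, adjusted p = 0.0143). Of 8 transporter genes ABCG31 was above (0.84, adjusted p = 0.0369) and DTX50, an exporter of abscisic acid, below (-1.23, adjusted p = 0.0404). With the block the adjusted p was 0.0666 for ABCG31 and 0.0706 for DTX50. The ABA1 call (0.52, adjusted p = 0.0408) ended with the block (adjusted p = 0.0800) and without 9 of the 12 libraries, and that of ABCG31 without 8, the exceptions being Col-0 fruit replicate 1 and lhp1-6 seed replicate 2 for both, lhp1-6 fruit replicate 3 for ABA1, and Col-0 fruit replicate 3 and Col-0 seed replicate 2 for ABCG31. The DTX50 call ended without any library but Col-0 fruit replicates 1 and 2, and after median-of-ratios rescaling (adjusted p = 0.0548).

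Of 25 abscisic acid signalling genes, AFP1, an interactor of the transcription factor ABI5, was above (2.13, adjusted p = 0.0233). The receptor gene PYL8 and the kinase gene SNRK2.6 were below (-0.72 and -0.61, adjusted p = 0.0274 and 0.0260). All 3 calls ended without Col-0 seed replicate 2 or 3 or lhp1-6 seed replicate 1 or 3. They also ended without lhp1-6 fruit replicate 3 for AFP1 and PYL8, and without lhp1-6 fruit replicate 1 for AFP1 and SNRK2.6 and replicate 2 for SNRK2.6 (adjusted p up to 0.0670 for AFP1, 0.0784 for PYL8 and 0.0760 for SNRK2.6). That of AFP1 ended with the block (adjusted p = 0.0601), and those of PYL8 and SNRK2.6 after median-of-ratios rescaling (adjusted p = 0.0767 and 0.0611).

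Genes tied to dormancy gave 1 call in each direction of 7 tested, SPT below and PIF1 above. SPT, a bHLH factor of carpel growth and seed germination, rose in fruit from 36.8, 33.4 and 36.5 TPM to 76.7, 66.7 and 57.9 TPM and stood in seed at 62.2, 54.5 and 57.7 TPM in Col-0 and 52.1, 51.7 and 48.5 TPM in lhp1-6. The difference was -1.08 (SE 0.14, adjusted p = 0.00224). PIF1, a light-regulated repressor of germination, had a difference of 1.11 (adjusted p = 0.0317) that ended with the block (adjusted p = 0.0811). It also ended without Col-0 fruit replicate 3, lhp1-6 fruit replicate 1, any Col-0 seed replicate, or lhp1-6 seed replicate 1 or 3 (adjusted p up to 0.0900).

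DOG1, the main quantitative regulator of seed dormancy, did not pass for the difference. It stood at 1.17, 1.41 and 0.983 TPM across Col-0 seed and 11.9, 4.31 and 15.3 TPM across lhp1-6 seed, beside 0.373, 0.0696 and 0.215 TPM and 1.44, 1.61 and 1.47 TPM in fruit. The genotypes did not overlap in either tissue. The difference of 1.2 had an interval from 0.20 to 2.21 and an adjusted p of 0.148. ABCG20, an ABC transporter of suberin precursors, had 1.68 (adjusted p = 0.0535), and MFT, a regulator of germination related to FT, had -0.37 (adjusted p = 0.826).

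Of 14 storage protein and oleosin genes, 9 rose in fruit and 7 in seed, and none had a called difference. The genes that rose encode cruciferins and 2S albumins, while none of the 5 oleosin genes passed in either tissue. Over the list the median effect was 3.72 in fruit and 3.67 in seed, and the differences ran from -1.09 to 0.92. Standard errors of these differences ran from 0.70 (OLEO3) to 1.37 (CRU2), beside a median of 0.19 over all genes. The missing calls therefore do not show that the effects were alike. CRU1, a cruciferin gene, had a mean of 33.7 TPM across Col-0 fruit, 767 TPM across lhp1-6 fruit, 241 TPM across Col-0 seed and 6127 TPM across lhp1-6 seed. The estimated share of seed RNA was 8.31% to 11.2% in lhp1-6 fruit, and its part in the rise there was not tested. No gene of the flavonoid (17 tested), mucilage (12), pollen (9), photosynthesis (20), guard cell (11) or seed maturation (13) lists was called for the difference. Over all genes tested the share was 5.51%, so lists this short without a call are a description only. Without Col-0 fruit replicate 1, 14 of the 17 flavonoid and 8 of the 12 mucilage genes were called below 0, as were 5 of the 14 storage protein and oleosin genes, and of the 13 seed maturation genes 1 was above and 5 below.

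Of 18 sugar and amino acid transport genes, 1 was above and 3 below. SWEET12, a sucrose exporter that feeds the embryo, stood at 118, 131 and 129 TPM across Col-0 fruit and 165, 157 and 183 TPM across lhp1-6 fruit. In seed it stood at 103, 102 and 108 TPM in Col-0 and 66.5, 75.2 and 67.0 TPM in lhp1-6. It moved upward in fruit and downward in seed with no overlap (0.41 and -0.58, difference -0.99, SE 0.11, adjusted p = 0.00103). UMAMIT14, an amino acid exporter of the seed coat, rose in fruit from 19.8 ± 3.35 to 53.9 ± 3.74 TPM and stood at 35.6 ± 8.05 and 30.2 ± 3.75 TPM in seed (difference -1.62, adjusted p = 0.004). UMAMIT18 went the other way, from 75.0 to 143 TPM in seed and from 112 to 103 TPM in fruit (difference 1.04, adjusted p = 0.0101). SWEET11, a sucrose exporter like SWEET12, was below (-0.72, adjusted p = 0.0357). That call ended with the block (adjusted p = 0.0551), after median-of-ratios rescaling (adjusted p = 0.105) and without any library but Col-0 fruit replicates 1 and 2, lhp1-6 fruit replicate 2 and lhp1-6 seed replicate 1 (adjusted p up to 0.103).

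Further single calls fell in lists that otherwise did not pass. ADPG1, a polygalacturonase of fruit opening, rose in fruit from 78.0 ± 16.4 to 270 ± 29.1 TPM and stayed under 1 TPM in seed (difference -1.75, adjusted p = 0.00487). IKU2, a receptor kinase of endosperm growth, rose in fruit from 2.07 ± 0.04 to 7.08 ± 2.05 TPM and was at or near 0 in seed (difference -1.36, adjusted p = 0.00783). AGO9, an Argonaute protein of the ovule, fell in seed from 38.5, 39.4 and 41.5 TPM to 22.9, 24.6 and 23.6 TPM, with fruit at 40.6 ± 4.93 and 45.3 ± 4.40 TPM (difference -0.88, adjusted p = 0.00628).

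The evening clock genes LUX, COR27 and COR28 rose in fruit, by 0.83, 1.40 and 1.21, and did not pass in seed, where their effects were 0.11, 0.23 and 0.29. Their differences were -0.72, -1.17 and -0.92 (adjusted p = 0.00671, 0.0107 and 0.0106). Of 17 clock genes these 3 were below and RVE1 (1.16, adjusted p = 0.0319) above. The RVE1 call ended without Col-0 fruit replicate 2, lhp1-6 fruit replicate 1 or 2, any Col-0 seed replicate, or lhp1-6 seed replicate 1 or 3 (adjusted p up to 0.0918).

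**Figure D5:**
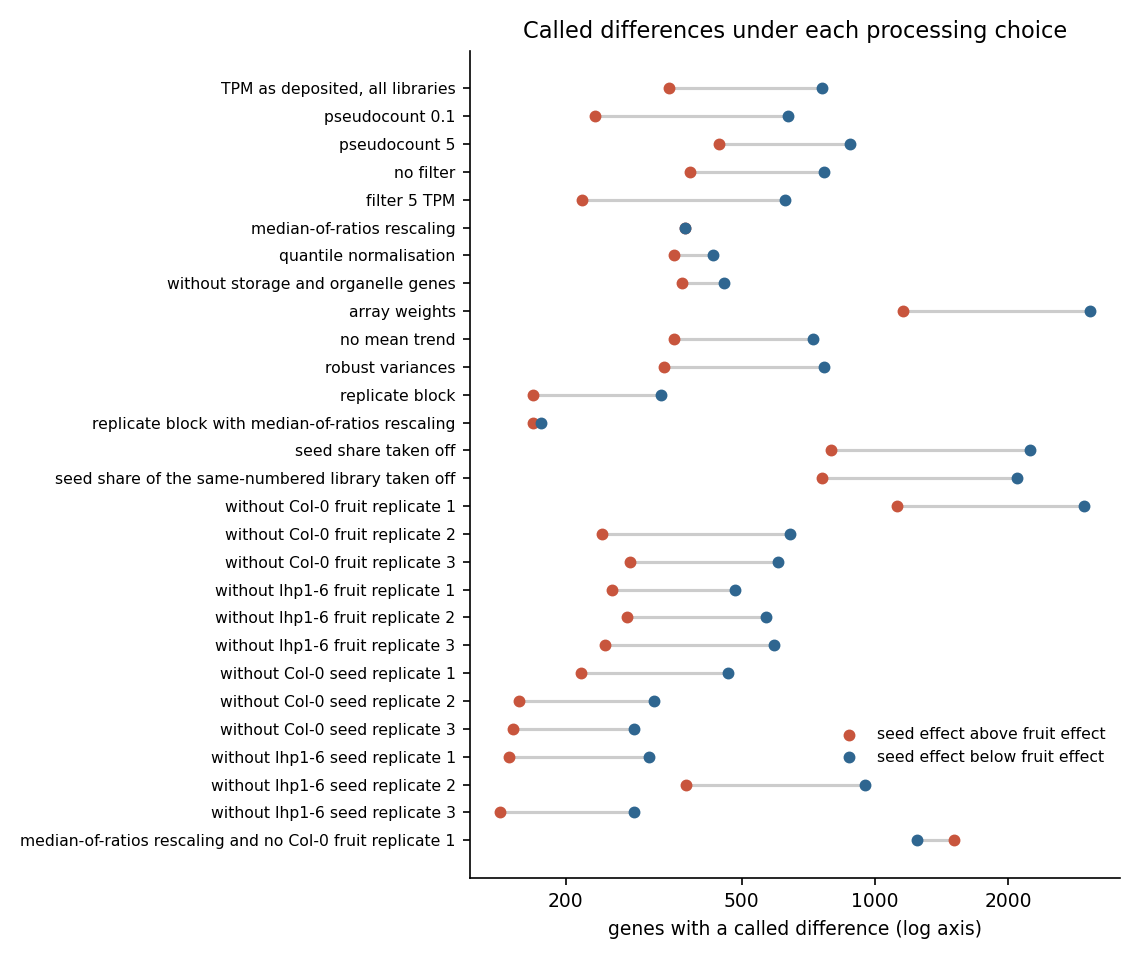
Each line is a processing choice, with the number of genes called above 0 in red and below 0 in blue on a log axis. The deposited TPM gave 343 and 757, median-of-ratios rescaling gave 373 and 372, which overlie each other, and leaving out Col-0 fruit replicate 1 gave 1123 and 2962.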

How the data were processed

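Fruits and seeds dissected by hand were profiled by RNA-seq. The authors deposited 1 TPM value per gene and library. Per the submitters' processing notes they used cutadapt 1.9.1, STAR 2.5, featureCounts and TAIR10. TPM keep no depth, which is unknown beyond the minimum of 25 M reads per the labels. Whether counting used strand was not given in the sources used here. Overlapping and antisense genes are therefore uncertain.

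Group means were fitted with limma 3.58.1 (R 4.3.3, variance trend) to log2(TPM + 1) in all 12 libraries. Benjamini-Hochberg adjustment ran over 19946 genes, with a threshold of 0.05. This scale understates changes of low genes. The code was tested on simulated data.

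Genes were named by a rule that takes LHP1 and the largest called differences per class and direction with at least 5 TPM in the highest group. For the latter, seed minus fruit values of same-numbered libraries were also not to overlap between genotypes. That held for 29.6% of genes tested and for all 343 and 757 called, and levels within a tissue could still overlap. The rule also takes the largest reversed and alike genes, up to 2 called members per list by adjusted p, and DOG1, MFT, NCED3, CYP707A2, DTX50 and ABCG20. Further members of lists were named after their values were seen. The members, rule and lists were chosen with earlier results of these data known. Product names came from the TAIR10.1 annotation.

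Fruit and seed libraries of the same number departed weakly from their group means together (correlations of 0.192, 0.113 and 0.185 for Col-0 and 0.311, 0.202 and 0.128 for lhp1-6). Libraries of unlike numbers had lower correlations, from -0.156 to 0.0392 for Col-0 and from -0.245 to 0.0585 for lhp1-6. Whether they came from the same siliques was not stated. The replicate block took the numbers as pairs, whereas the main fit and its p-values treated the 12 libraries as independent. With the block 169 differences were called above 0 and 328 below, beside 343 and 757 in the main fit. The share of seed RNA in a fruit library was the percentile 1 of its TPM over the mean seed TPM, among genes with 50 TPM in each seed library of its genotype, leaving out storage and late embryogenesis genes.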

Additional observations from a re-analysis of the deposited data

Results flagged for a closer look

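The lhp1-6 effect was called with opposite signs in fruit and seed, and the difference itself was called, for 67 genes. Upward in seed, the differences were 3.73 for AT5G66780, 2.63 for PER64, 2.01 for SEP4, 2.2 for AT3G12955 and 1.79 for AT3G55710. Downward in seed, they were -2.06 for AT5G43870, -1.76 for AT2G03980, -1.58 for SEP3, -1.90 for AT3G62820 and -1.28 for AT5G10830. Each of these 10 differences kept its sign and its call in both rescalings and without each library in turn. Groups of 3 libraries are too small for a test of single outlying values.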

How the results depend on the processing

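The results are limited by how far they moved with the scaling and with the removal of Col-0 fruit replicate 1. They also moved when fruit values were corrected for seed RNA, but the part of seed RNA in the other shifts was not tested. The quantities are given in this order: differences above 0, differences below 0, called differences among genes expressed in both tissues, effects called in fruit, effects called in seed, called differences of opposite sign, reversed genes and genes changed alike. As reported they were 343, 757, 770, 2980, 2410, 750, 67 and 422. Only values that moved by over 1.5 times follow, and the cause was not tested. A filter at 5 TPM left 218 above. Median-of-ratios rescaling gave 372 below, 462 in both-tissue genes, 997 in seed, 467 opposite, 24 reversed and 205 alike. Quantile normalisation gave 430 below, 1069 in seed, 23 reversed and 210 alike. Leaving storage and organelle genes out of the total gave 455 below, 1177 in seed, 27 reversed and 232 alike. Array weights gave 1155 above, 3059 below, 3433 in both-tissue genes, 10033 in seed, 3004 opposite, 300 reversed and 935 alike. The replicate block, possible for the difference only, gave 169 above, 328 below and 327 in both-tissue genes, and with median-of-ratios rescaling 169, 176 and 205. Taking the seed share off the fruit libraries gave 796 above, 2238 below, 2427 in both-tissue genes, 4751 in fruit, 2254 opposite and 179 reversed. With the seed library of the same number these were 758, 2089, 2266, 4675, 2100 and 170. A test against a minimum change of 1 gave 9 above, 16 below, 5 in both-tissue genes, 69 in fruit, 17 in seed, 8 opposite and 0 reversed. Rescaling together with removal of Col-0 fruit replicate 1, chosen after seeing the data, gave 1503 above, 1241 below, 2060 in both-tissue genes, 6146 in fruit, 1721 opposite and 117 reversed. An interval inside -0.5 to 0.5 left 211 alike.

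Leaving out each library in turn gave 142 to 1123 above, 285 to 2962 below, 257 to 3276 in both-tissue genes, 1829 to 5730 in fruit, 662 to 4154 in seed, 276 to 2808 opposite, 16 to 261 reversed and 126 to 826 alike. The highest of each came without Col-0 fruit replicate 1. The uncalled difference of MFT, -0.37, ranged from -1.21 without Col-0 fruit replicate 1 to 0.24 without Col-0 fruit replicate 2. Of 73 genes named by the rule 62 were called, and 32 of these stayed called under the 27 alternatives other than the test against a minimum change of 1. With the replicate block 42 stayed called.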
